A study of Mus musculus with 6 samples.

Results

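Interferon-inducible GTPases are large GTP-binding proteins that cells make after interferon binds its receptor and STAT and IRF transcription factors are activated. The genes described here are Gbp2, Gbp3 and Gbp6 of the guanylate-binding protein family, and Irgm1, Irgm2, Igtp, Iigp1 and Tgtp1 of the immunity-related GTPase (IRG) family. They were chosen by their symbol in the annotation of the array, and every probe set annotated to that symbol alone was used. Of the 8 genes, 7 had such a probe set, and together they had 10 of the 45101 probe sets of the array. Tgtp1 had none, because its listed probe set carried the symbols of both Tgtp1 and Tgtp2, so it has no level here. With 1 probe set a gene, the 7 genes are among 18193 tested.

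Guanylate-binding proteins and effector IRG proteins such as Iigp1 and Tgtp1 gather on the vacuoles that enclose intracellular bacteria and parasites, and help to break them open. Irgm1, Irgm2 and Igtp are the regulatory IRG proteins, which sit on the cell's own membranes and keep the effectors inactive there. Guanylate-binding proteins also help inflammasomes to sense bacterial products in the cytosol. In macrophages and dendritic cells both families belong to cell-autonomous defence.

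Expression was measured with Affymetrix arrays on total RNA from C57BL/6 mouse cells in 3 groups of 2 arrays, numbered 1 and 2 in the titles. GM-MPP were multipotent progenitors grown out of bone marrow with stem cell cytokines and the growth factor GM-CSF. GM-DC were dendritic cells that GM-CSF gave from those progenitors; dendritic cells take up antigens and show them to T cells. GM-TNFa-DC were made the same way with the inflammatory cytokine TNFa added to GM-CSF. All groups thus saw GM-CSF, and none of the labels names an interferon. Whether a group's arrays stand for different cultures or mice is not stated, so a p-value covers only the spread between arrays, which may be technical. The number of arrays limits the precision.

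Values are log2 expression levels, and the array medians lay between 4.67 and 4.77, so a probe set at or below that level is dim. Markers went with the labels only in part. In GM-DC against GM-MPP 9 of 10 dendritic cell markers rose, and 6 of 7 progenitor markers and 6 of 9 markers of neutrophils and their precursors fell. The progenitor marker that did not fall, Kit, was at 7.09 and 7.22 in GM-MPP and at 8.997 and 5.65 in GM-DC. In GM-MPP the markers of neutrophils and their precursors, cells which its label does not name, averaged 12.2 and 12.8. The progenitor markers averaged 8.22 and 8.53 there. Levels of different genes come from different probe sets, so these means do not rank cell types. The cell makeup behind these levels was not tested. Within the dendritic cell groups the arrays also differed by number, as described with Gbp6, so values are given for each array. In such bulk samples fewer cells of a type and less RNA per cell cannot be told apart.

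The promoters of these genes are shown first because they carry the sequences through which interferon is known to act. RefSeq windows (build GRCm38.p6) from 250 bases before to 50 after a start site were at hand for 6 of the 8 genes, Gbp2, Gbp3, Irgm1, Irgm2, Igtp and Tgtp1, and Gbp3 had 2 of them. Both strands were searched for GAAANNGAA, the core of the interferon-stimulated response element that IRF and STAT2-containing complexes bind, and for TTCNNNGAA, the gamma-activated site bound by STAT dimers. The second motif reads the same on both strands. All of the 7 windows but the second of Gbp3 held the first motif, so each of the 6 genes had it in 1 window. Its first bases lay between -77 and -24 from the start site. Of all 32851 windows 8.56% held it. The second motif was in the windows of 3 genes, Irgm2, Igtp and Tgtp1, and in 8.3% of all windows. Both motifs together were in 1.07% of all windows. A match is a match of letters and shows no binding.

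The windows of 5 measured genes follow, 5′ to 3′ on the strand of the gene, with motif matches in capitals. They show 3 layouts: the response element core alone in Gbp2, 2 overlapping cores in Gbp3 and Irgm1, and a gamma-activated site 2 bases before the core in Irgm2 and Igtp. Gbp2 lies at chr3:142620413-142620712 on the + strand and Gbp3 (first start) at chr3:142559794-142560093 on the + strand. Irgm1 lies at chr11:48871371-48871670 on the - strand, Irgm2 at chr11:58214727-58215026 on the + strand and Igtp at chr11:58199306-58199605 on the + strand.
Gbp2: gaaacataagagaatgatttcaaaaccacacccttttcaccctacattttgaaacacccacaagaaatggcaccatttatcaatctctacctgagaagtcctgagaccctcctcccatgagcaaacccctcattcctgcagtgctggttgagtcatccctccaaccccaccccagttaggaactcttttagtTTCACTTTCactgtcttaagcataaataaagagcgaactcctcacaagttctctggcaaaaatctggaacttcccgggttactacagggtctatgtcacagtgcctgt
Gbp3: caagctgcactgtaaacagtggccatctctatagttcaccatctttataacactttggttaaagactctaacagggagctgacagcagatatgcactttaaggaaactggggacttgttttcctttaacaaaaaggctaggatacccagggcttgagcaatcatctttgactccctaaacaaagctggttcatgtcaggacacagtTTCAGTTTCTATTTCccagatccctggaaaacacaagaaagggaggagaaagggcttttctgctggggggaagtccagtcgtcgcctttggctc
Irgm1: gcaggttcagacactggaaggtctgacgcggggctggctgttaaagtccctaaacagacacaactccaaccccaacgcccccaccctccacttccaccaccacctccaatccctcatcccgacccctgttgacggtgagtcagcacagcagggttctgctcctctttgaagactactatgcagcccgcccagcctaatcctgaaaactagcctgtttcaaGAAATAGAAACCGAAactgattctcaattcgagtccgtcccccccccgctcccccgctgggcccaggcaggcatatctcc
Irgm2: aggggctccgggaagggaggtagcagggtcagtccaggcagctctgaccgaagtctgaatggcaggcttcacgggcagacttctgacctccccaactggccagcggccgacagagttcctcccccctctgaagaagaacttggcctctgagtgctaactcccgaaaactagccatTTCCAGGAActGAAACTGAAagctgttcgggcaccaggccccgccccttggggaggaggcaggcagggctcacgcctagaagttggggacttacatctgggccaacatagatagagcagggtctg
Igtp: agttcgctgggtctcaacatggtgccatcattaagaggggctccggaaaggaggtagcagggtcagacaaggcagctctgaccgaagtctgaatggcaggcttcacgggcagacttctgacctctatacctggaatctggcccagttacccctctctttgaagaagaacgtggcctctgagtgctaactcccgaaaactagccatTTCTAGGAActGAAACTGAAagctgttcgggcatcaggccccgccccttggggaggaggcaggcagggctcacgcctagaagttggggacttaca

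In Gbp2 and Gbp3 the cores lie on the opposite strand of the gene, and in Irgm1, Irgm2 and Igtp on its own strand. The Irgm2 and Igtp windows share an identical run of 61 bases, the longest between any pair of windows of different genes here, and Tgtp1 shares a run of 20 bases with Irgm2. Tgtp1 also has the gamma-activated site 2 bases before the core. The other window of Gbp3 held neither motif.

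**Figure D1:**
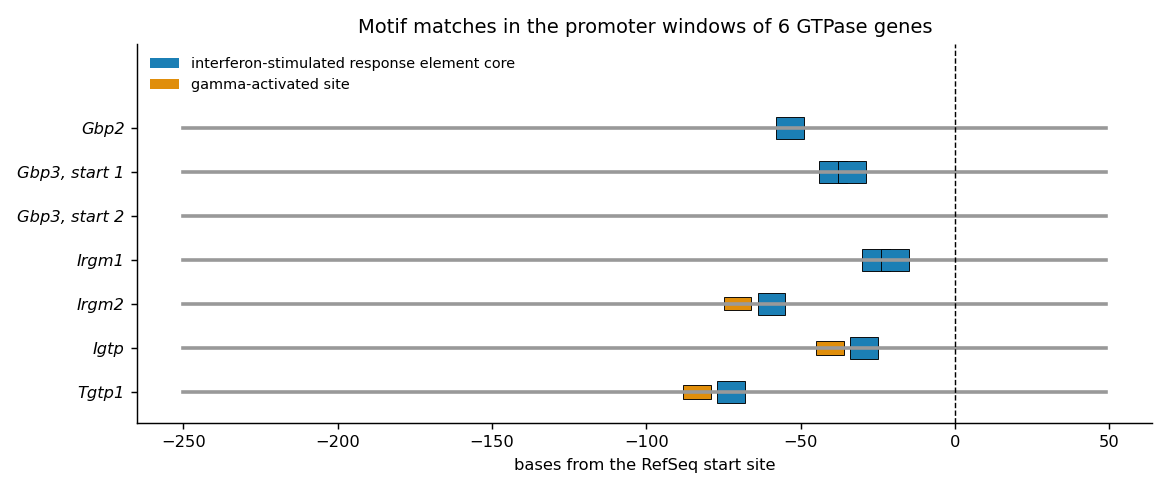
Positions of motif matches in 7 RefSeq promoter windows of 6 GTPase genes, in bases from the start site (dashed line at 0). Blue boxes are the interferon-stimulated response element core and orange boxes the gamma-activated site; the cores begin between -77 and -24, and 3 genes have a gamma-activated site just before the core.

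GM-DC was first set against GM-MPP, which asks how these genes differ between progenitors and dendritic cells. All 7 measured genes had a higher mean in GM-DC, a count whose share over all genes was not taken. Of them 3 rose past the threshold (limma, Benjamini-Hochberg adjusted p under 0.05 over 18193 genes): Gbp2, Gbp3 and the IRG effector Iigp1. Over all genes 4.5% were called, 1.87% higher and 2.63% lower. In 5 of the 7 both GM-DC arrays lay above both GM-MPP arrays, which 28.3% of all genes did (27% lay below). The median log2 change of the 7 genes was 1.24, against 0.02 for all genes. The regulators Irgm1, Irgm2 and Igtp did not pass. The mean level of the 9 measured markers of neutrophils and their precursors, at 12.2 and 12.8 in GM-MPP, was 7.92 and 6.44 in GM-DC. The part of any change in cell makeup in these values was not tested.

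Gbp2 was at 5.22 and 5.96 on the GM-MPP arrays, at 9.69 and 9.51 on the GM-DC arrays and at 11.10 and 10.06 on the GM-TNFa-DC arrays. Its 3 groups did not overlap, and the order was GM-MPP, GM-DC, GM-TNFa-DC on both numbers. GM-DC exceeded GM-MPP by 4.01 ± 0.43 (log2, moderated SE), or 16.1-fold (adjusted p = 0.0130), and 49 of the 18193 genes had a larger increase. The other Gbp2 probe set, 1418240_at, gave 3.98 ± 0.47 in the fit of all probe sets (adjusted p = 0.0198). The probe set used, 1435906_x_at, has the suffix that the maker gives to sets whose probes may also match other transcripts.

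Gbp3 lies in the same chromosomal cluster of guanylate-binding protein genes as Gbp2. Its levels were 5.03 and 5.94 in GM-MPP, 7.39 and 7.71 in GM-DC, and 8.17 and 7.77 in GM-TNFa-DC. Again the 3 groups did not overlap. GM-DC was higher than GM-MPP by 2.07 ± 0.36, or 4.19-fold (adjusted p = 0.0400).

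Iigp1, which encodes the effector also known as Irga6, was dimmer. Its probe set 1419043_a_at was at 4.08 and 4.16 in GM-MPP, 5.35 and 5.36 in GM-DC, and 4.73 and 4.93 in GM-TNFa-DC. The 2 arrays of each group lay close together and the groups did not overlap, with GM-DC highest. The GM-DC increase was 1.24 ± 0.15, or 2.35-fold (adjusted p = 0.0170), from a level below the array median, where array folds are known to be compressed. The other Iigp1 probe set, 1419042_at, lay between 2.69 and 3.49 on all 6 arrays and did not pass (0.52 ± 0.22, adjusted p = 0.297 in the fit of all probe sets). With the mean of both probe sets the Iigp1 change was 0.88 and did not pass (adjusted p = 0.0513).

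Each of these 3 calls was lost without GM-MPP 1, GM-MPP 2, GM-DC 1 or GM-DC 2. Such a fit leaves 1 array in a group, and most calls over all genes were lost in it too. The changes stayed between 3.65 and 4.38 for Gbp2, 1.61 and 2.52 for Gbp3, and 1.20 and 1.28 for Iigp1. Gbp3 also missed the threshold without GM-TNFa-DC 1 or GM-TNFa-DC 2 (adjusted p = 0.0532 and 0.0536), and in a fit of only the 4 arrays (adjusted p = 0.0530).

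None of the regulatory IRG genes passed. Irgm2 was at 5.78 and 6.32 in GM-MPP, 6.78 and 7.06 in GM-DC, and 7.14 and 6.94 in GM-TNFa-DC. Both dendritic cell groups lay above GM-MPP without overlap, by 0.87 ± 0.26 for GM-DC, which did not pass (adjusted p = 0.131). Irgm1 was at 7.10 and 7.53 in GM-MPP, 7.31 and 8.19 in GM-DC, and 7.04 and 8.32 in GM-TNFa-DC. Igtp, also called Irgm3, was at 7.08 and 7.33 in GM-MPP, 7.17 and 7.68 in GM-DC, and 6.77 and 7.84 in GM-TNFa-DC. For both genes the groups overlapped, and the changes of 0.43 ± 0.51 and 0.22 ± 0.40 did not pass (adjusted p = 0.684 and 0.806). Irgm1 and Igtp were already well above the array medians in GM-MPP, unlike Iigp1 and Gbp6.

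**Figure D2:**
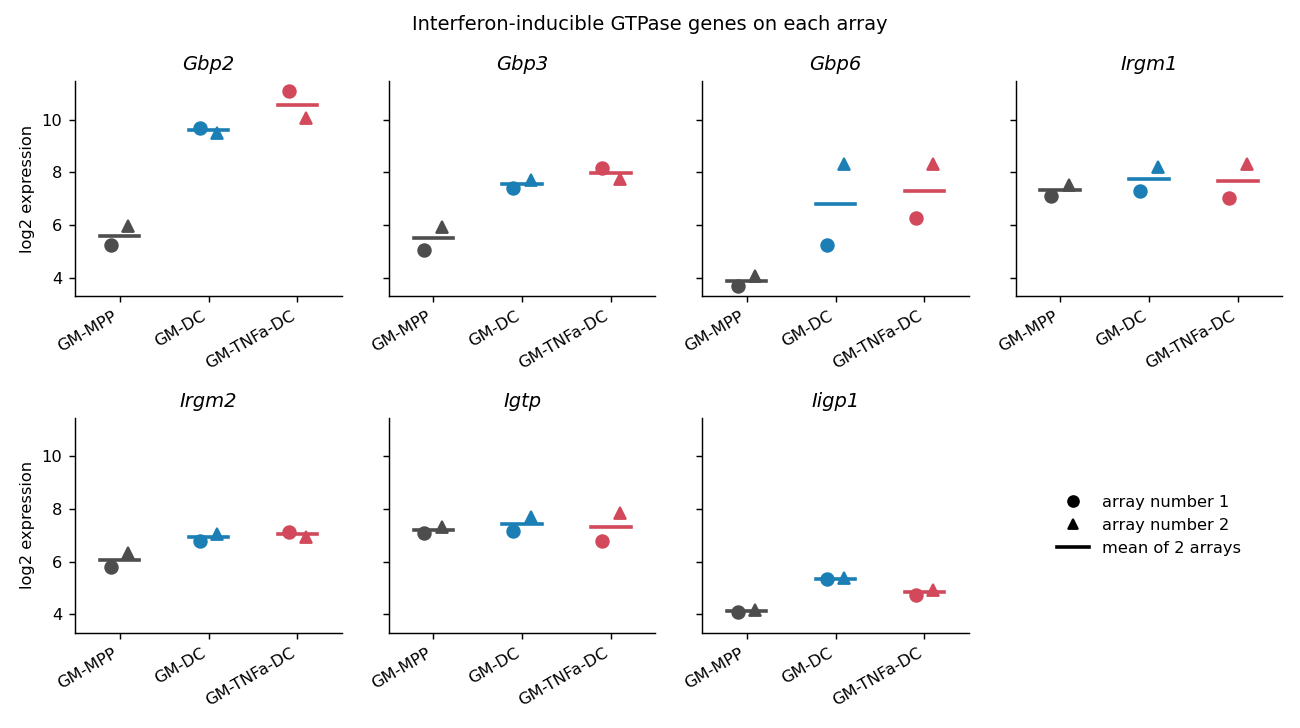
Log2 expression of the 7 measured GTPase genes on each of the 6 arrays, with number-1 arrays as circles, number-2 arrays as triangles and the mean of each group as a line. Gbp2 rises from 5.22 and 5.96 in GM-MPP to 9.69 and 9.51 in GM-DC, and the 2 arrays of each dendritic cell group lie far apart for Gbp6.

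Gbp6 showed the widest gap between arrays of one group among the 7 genes. Its probe set 1447927_at was at 3.67 and 4.08 in GM-MPP, at 5.23 on GM-DC 1 but 8.33 on GM-DC 2, and at 6.27 on GM-TNFa-DC 1 but 8.30 on GM-TNFa-DC 2. The other probe set, 1438676_at, was at 3.23 and 3.17 in GM-MPP, at 4.18 and 8.73 in GM-DC, and at 5.23 and 8.69 in GM-TNFa-DC. Every dendritic cell array lay above both GM-MPP arrays, and in both probe sets the number-2 arrays were the high ones. The GM-DC change of 2.91 ± 1.12 did not pass (adjusted p = 0.215); it was 1.56 on number 1 and 4.26 on number 2. Gbp6 has close relatives in its chromosomal cluster, and short probes may not part them fully.

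The gap was tested, after the values had been seen, by comparing array number 2 with 1 on the 4 dendritic cell arrays in a limma fit with 1 residual degree of freedom. Over all genes 6.41% were called higher and 5.41% lower on number 2. Gbp6 was higher on number 2 by 2.57 ± 0.28 (adjusted p = 0.00901), and 115 genes had a larger increase. Irgm1 was also higher on number 2, by 1.08 ± 0.16 (adjusted p = 0.0205). Igtp (0.79 ± 0.19, adjusted p = 0.0621), Gbp2 (-0.61 ± 0.23, adjusted p = 0.173), Gbp3 (-0.04 ± 0.21), Irgm2 (0.04 ± 0.18) and Iigp1 (0.11 ± 0.15) did not pass. The labels do not say what the number marks. The fit takes GM-DC and GM-TNFa-DC as separate measures of the number difference, but their deviations correlated at 0.806 over all genes. If same-numbered arrays share a source, its p-values cover only how far the 2 groups differ in that gap, not the spread between sources.

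Other interferon genes were read in the same fit. Of 17 measured type I interferon targets, 13 were called higher and none lower on number 2, and their median difference was 1.95, against 0.03 for all genes. Their mean level was 6.53 and 8.50 on GM-DC 1 and 2, and 6.88 and 8.57 on GM-TNFa-DC 1 and 2. On GM-MPP 1 and 2, which were not in that fit, it was 6.01 and 6.66. Irf7, a transcription factor that interferon induces, was at 4.83 on GM-DC 1 and 8.58 on GM-DC 2, and at 5.34 and 9.22 on GM-TNFa-DC 1 and 2. It was the 1 of 8 measured interferon regulatory factors called higher on number 2, while 3 were called lower, Irf1 (-0.77, adjusted p = 0.0262), Irf4 (-1.20, adjusted p = 0.0113) and Irf5 (-0.76, adjusted p = 0.0476), and the median of the 8 was -0.56. Oasl2, an antiviral gene, was at 5.05 and 8.84 in GM-DC and at 6.25 and 9.28 in GM-TNFa-DC. Of 19 interferon-gamma targets outside the GTPases, 4 were called higher and 1 lower on number 2, and of 7 other GTPases 0 were higher and 2 lower. The 4 interferon-gamma targets called higher were Fcgr1 (2.26), Cxcl10 (2.16), Nos2 (2.04) and Tapbp (0.65). The 1 called lower was the class II transactivator Ciita (-2.41), at 6.93 on GM-DC 1 and 4.44 on GM-DC 2. Cell type markers also differed between numbers. On number 2, 9 of 10 dendritic cell markers were called lower, and 3 of 8 monocyte and macrophage markers were called higher and 1 lower. These lists overlap with those above: Fcgr1, called higher, is also counted as an interferon-gamma target. Irf4, called lower, is counted both as a dendritic cell marker and as an interferon regulatory factor. The mean level of the 10 dendritic cell markers was 11.13 and 9.85 on GM-DC 1 and 2, and 11.79 and 10.24 on GM-TNFa-DC 1 and 2. That of the 8 monocyte and macrophage markers was 8.36 and 9.56, and 8.12 and 9.25. On GM-MPP 1 and 2 the monocyte and macrophage markers averaged 7.84 and 9.04, and the dendritic cell markers 5.11 and 5.19. Their part in the Gbp6 and Irgm1 differences was not tested.

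**Figure D3:**
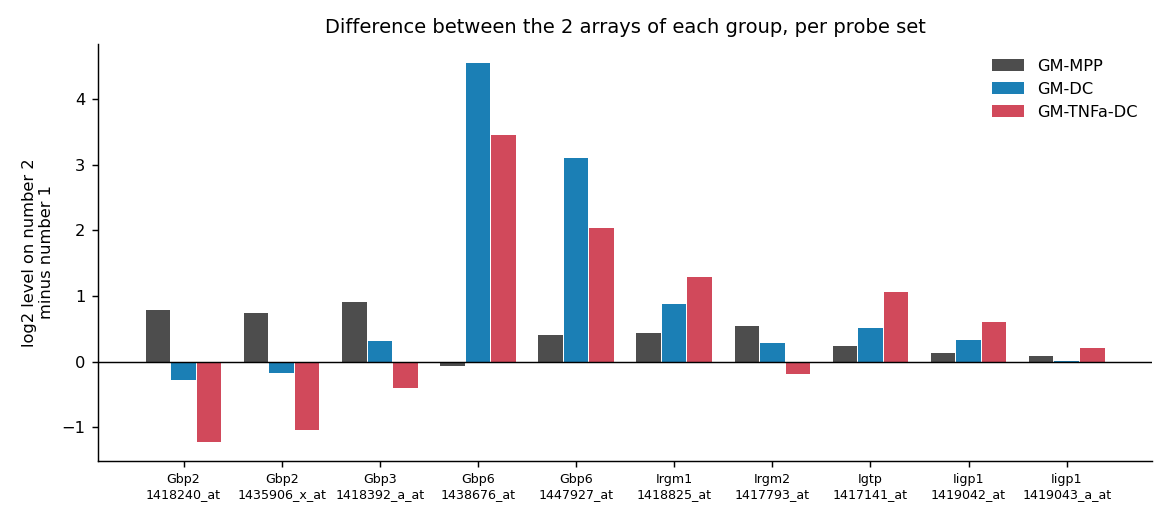
Log2 level on array number 2 minus number 1 within each of the 3 groups, for each of the 10 probe sets of the 7 genes. Bars of both Gbp6 probe sets reach 3.10 and 4.55 in GM-DC, whereas those of Gbp2 lie below 0 in both dendritic cell groups.

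GM-TNFa-DC was next set against GM-DC, which asks what the addition of TNFa changed. None of the 7 genes passed, as none of the 18193 genes did (0% called higher and 0% lower; lowest adjusted p = 1, with 270 genes higher and 140 lower at an unadjusted p under 0.05). Of the 7 genes 4 had a higher and 3 a lower mean, with a median change of 0.12, against 0.01 for all genes. Gbp2 differed by 0.98 ± 0.43 (adjusted p = 1), with 1.41 on number 1 and 0.54 on number 2, and its difference was 0.45 without GM-TNFa-DC 1 and 1.498 without GM-TNFa-DC 2. The difference of its other probe set was 1.00 ± 0.47. Gbp3 differed by 0.41 ± 0.36, at 0.77 on number 1 and 0.06 on number 2.

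For Iigp1 both GM-TNFa-DC arrays (4.73 and 4.93) lay below both GM-DC arrays (5.35 and 5.36). The difference of -0.52 ± 0.15 had an unadjusted p of 0.0127 and did not pass (adjusted p = 1). Its dimmer probe set differed by -0.08 ± 0.22. Over all genes, 10.6% had both GM-TNFa-DC arrays below both GM-DC arrays and 14.9% had both above. Gbp6 (0.51 ± 1.12), Irgm1 (-0.07 ± 0.51), Irgm2 (0.12 ± 0.26) and Igtp (-0.12 ± 0.40) overlapped between the groups. On numbers 1 and 2 the differences were 1.04 and -0.03 for Gbp6, which hardly differed on number 2. They were -0.27 and 0.13 for Irgm1, 0.35 and -0.12 for Irgm2, and -0.39 and 0.16 for Igtp.

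Against GM-MPP, GM-TNFa-DC had the same 3 genes past the threshold, where 7.03% of all genes were called, 2.77% higher and 4.26% lower. In 5 of the 7 genes both GM-TNFa-DC arrays lay above both GM-MPP arrays, as in 31.6% of all genes (26.1% lay below). These values share the GM-MPP arrays with those of GM-DC and are not independent of them. Gbp2 was higher by 4.99 ± 0.43, or 31.8-fold (adjusted p = 0.00688), Gbp3 by 2.48 ± 0.36, or 5.58-fold (adjusted p = 0.0222), and Iigp1 by 0.71 ± 0.15, or 1.64-fold (adjusted p = 0.0485). The Iigp1 call was the least firm: it was lost in 5 of 9 other settings, among them a second quantile normalization (adjusted p = 0.0617), and without any 1 array (adjusted p between 0.0863 and 0.256). Gbp2 lost its call without GM-MPP 1 or GM-MPP 2 (adjusted p = 0.0605 and 0.0523). Gbp3 lost it without GM-MPP 1, GM-MPP 2, GM-TNFa-DC 1 or GM-TNFa-DC 2, fits in which most calls over all genes were lost too. Gbp6 (3.42 ± 1.12, adjusted p = 0.136), Irgm2 (0.99 ± 0.26, adjusted p = 0.0840), Irgm1 (0.37 ± 0.51, adjusted p = 0.700) and Igtp (0.10 ± 0.40, adjusted p = 0.903) did not pass.

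**Figure D4:**
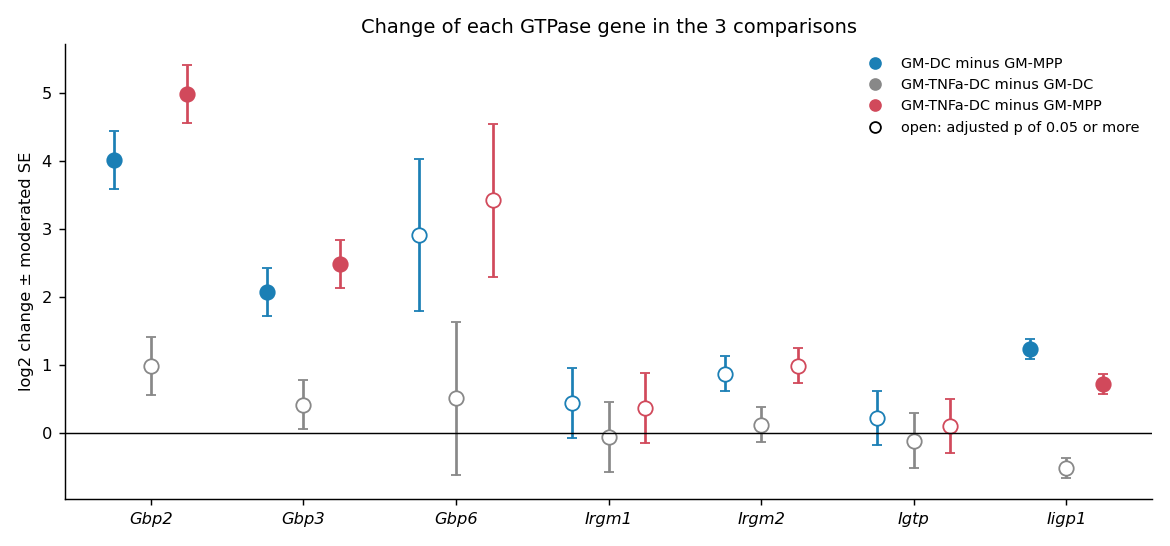
Log2 change with its moderated standard error for the 7 measured GTPase genes in the 3 comparisons; filled points have an adjusted p under 0.05 and open points do not. Gbp2, Gbp3 and Iigp1 are filled in both comparisons with GM-MPP, and no point is filled for GM-TNFa-DC against GM-DC.

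Other GTPases of these families were read next. Of 18 listed, 7 had a single-symbol probe set, and 4 of the 7 rose in GM-DC against GM-MPP, with none lower and a median change of 1.81. Gbp8 was at 3.82 and 3.44 in GM-MPP, 9.16 and 7.63 in GM-DC, and 8.47 and 6.87 in GM-TNFa-DC, a GM-DC increase of 4.77 ± 0.69 (adjusted p = 0.0269). Gm4951, an IRG gene related to Iigp1, rose by 3.85 ± 0.59 (adjusted p = 0.0309). In both dendritic cell groups Gbp8 and Gm4951 were higher on array number 1, where both Gbp6 probe sets were lower. Mx1, the gene for a dynamin-like GTPase, rose by 3.01 ± 0.27 (adjusted p = 0.00802), and Gbp7 rose by 1.81 ± 0.22 (adjusted p = 0.0183). In GM-TNFa-DC against GM-MPP the count was again 4 of 7, with Gbp8 at 4.04 ± 0.69, Mx1 at 3.47 ± 0.27, Gm4951 at 3.30 ± 0.59 and Gbp7 at 1.47 ± 0.22.

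The genes upstream of the GTPases were taken in order. Of 9 measured interferon ligands and inducing cytokines none passed in the 3 group comparisons. On array number 2 against 1, the interleukin-12 subunit genes went opposite ways, Il12a higher by 3.13 (adjusted p = 0.0108) and Il12b at -1.40 (adjusted p = 0.00901). Ifng, the gene for interferon gamma, lay between 2.56 and 2.82 on all 6 arrays, below the lower quartile of each array, and Ifnb1, for interferon beta, lay between 3.52 and 4.12. Of 8 measured T and NK cell markers, the cells that make interferon gamma, none rose. Nkg7 fell by 4.33 on the log2 scale in GM-DC, Cd3e lay between 5.62 and 6.24 and Ncr1 between 3.08 and 3.63. The mean level of the 8 markers ranged from 4.65 to 4.83 in GM-MPP, 4.23 to 4.27 in GM-DC and 4.29 to 4.49 in GM-TNFa-DC. Plasmacytoid dendritic cells are strong makers of type I interferon, and none of their 6 measured markers passed in the 3 group comparisons. On array number 2 against 1, 2 of the 6 were called higher, Bst2 by 1.47 (adjusted p = 0.00588), itself a type I interferon target, and Tcf4 by 0.85 (adjusted p = 0.0308).

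Of 10 measured receptor and JAK-STAT genes, Stat2 rose in GM-DC against GM-MPP, by 1.48 ± 0.25 (adjusted p = 0.0393), and none fell. Stat2 was at 5.97 and 6.18 in GM-MPP, 7.78 and 7.34 in GM-DC, and 7.88 and 7.52 in GM-TNFa-DC. The receptor chain gene Ifngr2 rose in GM-TNFa-DC against GM-MPP, by 1.43 ± 0.26 (adjusted p = 0.0392), and had a change of 0.92 ± 0.26 in GM-DC (adjusted p = 0.122). The other chain, Ifngr1, was at 9.37 and 9.82 in GM-MPP, 8.51 on average in GM-DC, and 8.01 and 8.64 in GM-TNFa-DC, and its change of -1.09 ± 0.30 did not pass (adjusted p = 0.110). Ifnar1 (0.36 ± 0.30, adjusted p = 0.558) did not pass either.

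Of 8 measured interferon regulatory factors, Irf4 rose in GM-DC against GM-MPP, by 4.45 ± 0.62 (adjusted p = 0.0248), and Irf4, Irf8 and Irf5 rose in GM-TNFa-DC against GM-MPP. Irf8 was at 5.80 and 7.32 in GM-MPP, 9.91 and 9.43 in GM-DC, and 10.99 and 9.43 in GM-TNFa-DC, with changes of 3.11 ± 0.69 (adjusted p = 0.0705) and 3.64 ± 0.69 (adjusted p = 0.0411). Irf1, which interferon gamma induces, was at 7.45 and 7.70 in GM-MPP, 9.16 and 8.43 in GM-DC, and 9.36 and 8.55 in GM-TNFa-DC, and Irf9, the partner of STAT2, was at 6.03 and 7.40, then 7.80 and 8.05, then 8.28 and 8.36. Neither passed (adjusted p = 0.146 and 0.205 in GM-DC, 0.0959 and 0.100 in GM-TNFa-DC). Among 8 feedback inhibitors none passed in GM-DC, and in GM-TNFa-DC against GM-MPP Usp18 (4.49 ± 0.75), Socs1 (2.04 ± 0.34) and Socs3 (1.98 ± 0.39) rose while Ptpn6 fell by 1.02 on the log2 scale.

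Among 19 interferon-gamma targets outside the GTPases, 3 rose in GM-DC against GM-MPP and none fell. They were Cd274, for the inhibitory ligand PD-L1 (3.65 ± 0.42, adjusted p = 0.0161), the adhesion molecule Icam1 (2.93 ± 0.44) and Gch1, for an enzyme of tetrahydrobiopterin synthesis (1.91 ± 0.32). In GM-TNFa-DC 4 rose, those 3 and the peptide transporter gene Tap1 (1.75 ± 0.35, adjusted p = 0.0470). Ciita had a change of 1.88 ± 1.02 in GM-DC (adjusted p = 0.360). Of 17 type I interferon targets none passed in GM-DC, although 15 had a higher mean, and Zbp1, a nucleic acid sensor, rose in GM-TNFa-DC (2.51 ± 0.49, adjusted p = 0.0429).

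The machinery that works with the GTPases was also read. The conjugation of ATG8 proteins, shared with autophagy, helps to direct IRG and guanylate-binding proteins to vacuoles. Of its 12 measured genes, Gabarapl1 rose in GM-DC against GM-MPP (1.34 ± 0.20, adjusted p = 0.0275) and in GM-TNFa-DC (1.51 ± 0.20, adjusted p = 0.0178), and no other passed in the 3 group comparisons. Atg5 (0.27 in GM-DC), Atg7 (-0.10) and Atg16l1 (0.30) did not pass. Of 7 measured inflammasome genes none passed in the 3 group comparisons. All 7 had a higher mean on array number 2 than on number 1, a count whose share over all genes was not taken. Of them 2 were called higher, as were 6.41% of all genes. They were the cytokine gene Il1b (3.15, adjusted p = 0.00187) and the adaptor gene Pycard (1.36, adjusted p = 0.00587), and the others did not pass. Across all 9 lists of this kind, no gene passed in GM-TNFa-DC against GM-DC.

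**Figure D5:**
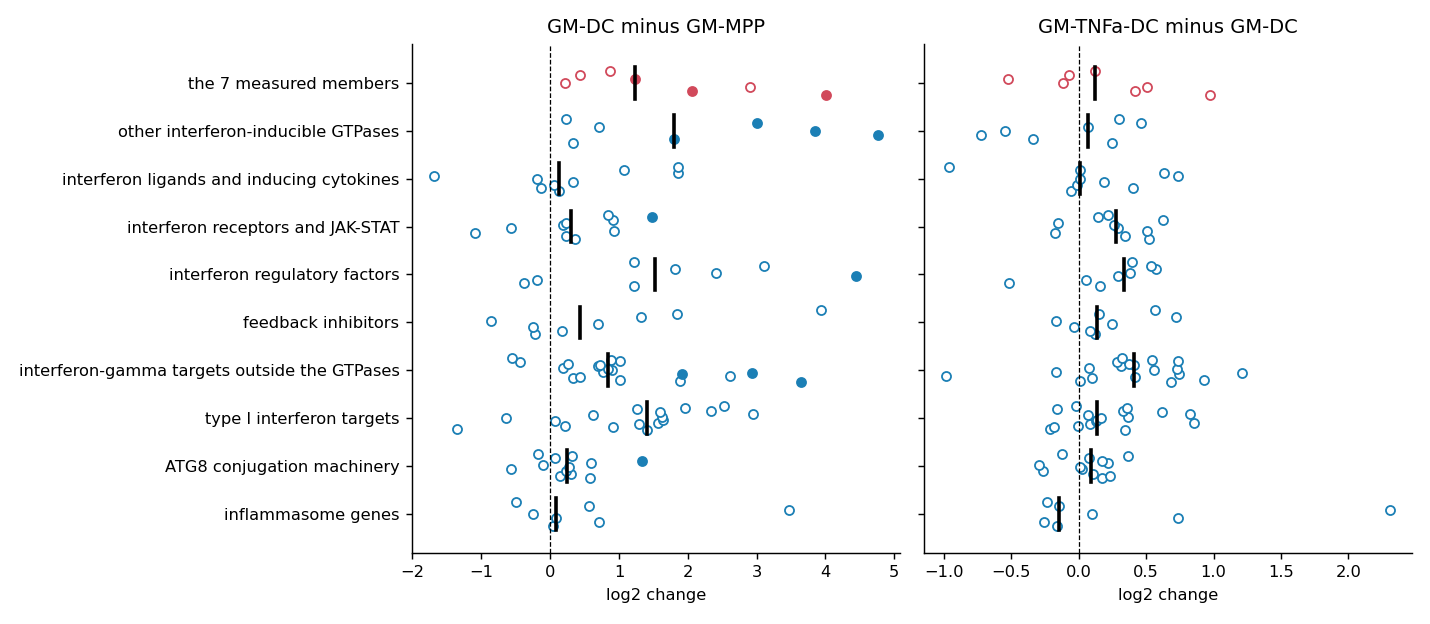
Log2 change of each measured gene in the 7 GTPases (top row) and in 9 lists of interferon and partner genes, for GM-DC minus GM-MPP (left) and GM-TNFa-DC minus GM-DC (right). Filled points have an adjusted p under 0.05, black bars are list medians; other GTPases have a median of 1.81 on the left, and the right panel holds no filled point.

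The genes most like each member called in a comparison, and most like Gbp6, were sought as a description. The measure was the root mean square difference of gene-centred log2 values over the 6 arrays. For Gbp2 these were Cxcl16, a chemokine (0.29, r = 0.992), Hivep3 (0.34, r = 0.989) and Irf4 (0.40, r = 0.984). For Gbp3 they were Ap3m2 (0.14, r = 0.995), the interleukin-10 receptor gene Il10ra (0.15, r = 0.992) and Filip1l (0.17, r = 0.993). For Iigp1 they were Pvt1, Pigh and Gas2l3 (0.08 to 0.09). For Gbp6, added after its values were seen, they were Pls3 (0.29, r = 0.988), Fam20c (0.38) and the Notch ligand gene Jag1 (0.46), each high on the number-2 dendritic cell arrays. All points of such a likeness share the same 6 arrays.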

How the data were processed

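The deposited values are log2 expression levels; per the submitters' processing notes and the labels the authors made them with RMA in Bioconductor, which corrects background, normalizes arrays by quantiles and summarises each probe set. Its version, and which arrays entered it together, is not given in the sources used here. That the scale is log2 was read from the values (1.89 to 14.4).

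Probe sets were named through the platform annotation, updated by Entrez identifier to RefSeq symbols (assembly GRCm38.p6): 34945 of 45101 had 1 symbol, 932 several, 9160 none, and 64 were controls. The single-symbol probe set of highest mean stood for each of 18193 genes. Limma 3.58.1 under R 4.3.3 fitted the 3 groups (eBayes with intensity trend, 3 residual degrees of freedom). P-values were adjusted by Benjamini and Hochberg's method and called under 0.05. The value after ± is the moderated standard error of a change. The fit was tested on simulated data in which all arrays varied independently. That test does not cover deviations shared by same-numbered arrays. Python 3.11.15 and matplotlib 3.10.9 made tables and plots. For Iigp1 no promoter was used here.

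The members and the gene lists were chosen with earlier results of these data known. Of 120 entries in 9 pathway lists, 97 had a single-symbol probe set. Named were all members, a panel of signalling genes, per list and comparison up to 3 called genes of largest change, markers that describe cell types, and the 3 genes most like each called member. Gbp7, Tap1, Irf7, Oasl2, Bst2, Tcf4, Il12a, Il12b, Il1b, Pycard, Atg5, Atg7, Atg16l1, Cxcl10, Nos2 and Tapbp were named after their values were seen. Other settings tried were quantile normalization repeated, centring on medians, dim genes removed, probe sets averaged or all kept, no trend, a robust prior, a fit of the 4 arrays compared, the array number as a block, and leaving out each array. The comparison of array numbers was added after seeing the data.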

Additional observations from a re-analysis of the deposited data

How the results depend on the processing

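Gbp2, Gbp3 and Iigp1 were higher than GM-MPP in both dendritic cell groups under every alternative tried. The number of GTPase genes called in GM-DC against GM-MPP, 3, was 2 or 3 in the 9 settings that do not leave out 1 array, and 0 to 2 with 1 array left out. For GM-TNFa-DC against GM-MPP it was 2 to 4 in those settings, and 0 to 2 with 1 array left out. Over all genes, 819 calls in GM-DC against GM-MPP became 1251 of all probe sets and 1476 with the replicate block, and 50 to 717 with 1 array left out. The 1279 calls in GM-TNFa-DC against GM-MPP became 2001 of all probe sets, 749 in the fit of 4 arrays and 2060 with the replicate block, and 91 to 760 with 1 array left out. An array left alone in its group was assumed to vary like the others.

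With 1 array left out, some uncalled changes turned sign. In GM-DC against GM-MPP, Irgm1 ranged from -0.0059 to 0.88 and Igtp from -0.041 to 0.47. In GM-TNFa-DC against GM-DC, Gbp6 ranged from -1.05 to 2.06, Irgm2 from -0.020 to 0.26, Irgm1 from -0.71 to 0.57 and Igtp from -0.65 to 0.41. In GM-TNFa-DC against GM-MPP, Irgm1 ranged from -0.28 to 1.01 and Igtp from -0.44 to 0.63. The cause was not tested.

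Groups share array numbers, but nothing in the labels says that a number pairs samples. Deviations of same-numbered arrays from their group means correlated over genes at 0.806 for GM-DC and GM-TNFa-DC, 0.105 for GM-MPP and GM-DC, and 0.0719 for GM-MPP and GM-TNFa-DC. With the number as a replicate block, Gbp6 passed in GM-TNFa-DC against GM-MPP (3.42 ± 0.64, limma adjusted p = 0.0380), and no other call of the 7 genes changed.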
